A study of Mus musculus with 11 samples.

Results

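The receptor gene Kit and 4 transcription factor genes of spermatogonial differentiation, Sohlh1, Sohlh2, Dmrt1 and Dmrtb1, were followed through male germ cell development in the mouse testis. They were looked up by symbol, and all 5 were found among the 20389 rows of the deposited table of UMI counts (a UMI, or unique molecular identifier, is a tag that marks 1 captured RNA molecule). The cells came from adult testes of 3 mice with a Dazl-GFP reporter, in which green fluorescent protein marks cells that express the germ cell gene Dazl, and only live fluorescent cells were sorted, 1 per well. The labels give no treatment, strain or exact age. The CEL-Seq1 protocol was used for mouse 1 (8 index-sorted libraries, each of 96 wells) and CEL-Seq2 for the other mice (384 wells a library), with 1 index-sorted library for mouse 2 and with 1 index-sorted and 1 gate-sorted library for mouse 3. The mouse was the replicate (n = 3), and effects of the mouse and of the protocol cannot be told apart.

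Of the 1920 wells, 1448 held at least 1000 UMIs and were kept. Mice 1, 2 and 3 had 16682671, 5866174 and 18032562 UMIs in total. Stages were built from genes of the odd-numbered autosomes, without the 5 genes and without every gene of the lists described below, which placed 1248 wells in 13 stages ordered by diffusion pseudotime. Stage 1 was undifferentiated-like, stages 2 to 4 differentiating-like, stages 5 and 6 preleptotene-like, stages 7 to 10 leptotene and zygotene-like, and stages 11 to 13 pachytene-like. Each mouse gave between 13 and 66 wells to every stage. Pseudotime did not resolve the order of stages 7 and 8, whose means were 0.521 and 0.522. Dazl was present in every stage, from 277 ± 47.3 CPM (UMIs of a gene per 1000000 UMIs of its mouse and stage, SD, n = 3) at stage 13 to 3642 ± 365 CPM at stage 9. Genes differed on where stage 10 belongs. At stages 9, 10 and 11 Eif2s3y, on chromosome Y, stood at 221, 15.4 and 3.32 CPM. The meiotic gene Meiob stood at 465, 406 and 104 CPM. Class comparisons that use stage 10 rest on its name. At stages 6, 8 and 7 the meiotic genes Stra8 (2121, 506 and 74.0 CPM) and Mei1 (334, 301 and 59.7 CPM) fell in that order. Dmrtc2 (173, 324 and 151 CPM) did not. The order was not tested.

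The summed markers of Sertoli cells, the somatic cells that surround germ cells, were highest at stage 6. Their 9 genes summed to between 3.83 and 537 CPM over the stages, and to between 2.78 and 267 CPM without Clu, the most abundant of them. By class the sum was 151 CPM in undifferentiated-like, 54.4 in differentiating-like, 314 in preleptotene-like, 48.5 in leptotene and zygotene-like and 6.79 in pachytene-like cells. At stage 6, Aard stood at 91.2 ± 46.9 CPM and Cldn11 at 63.2 ± 27.8 CPM. All but 2 of the 9 genes had their highest mean at stage 6, and Wt1 (26.9 ± 14.02 CPM) and Rhox5 (13.2 ± 9.59 CPM) had it at stage 1. The part of this RNA in the values of the 5 genes, at stages 1 and 6 among others, was not tested. The summed markers of Leydig, peritubular, endothelial and other cells reached at most 16.8 CPM in any stage, and the Leydig cell genes Cyp11a1 and Hsd3b1 had 3 UMIs or fewer over all stages.

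KIT is a receptor tyrosine kinase on the germ cell surface, and its ligand is made by Sertoli cells. Undifferentiated spermatogonia carry little KIT, and its appearance marks the step, driven by retinoic acid, at which spermatogonia commit to the divisions that precede meiosis. SOHLH1 and SOHLH2 are basic helix-loop-helix (bHLH) proteins, a family that binds the E-box CANNTG as dimers, and both are needed for spermatogonial differentiation, with Kit among their known targets. DMRT1 and DMRTB1 (also called DMRT6) carry the DM domain, a zinc-containing DNA-binding domain. DMRT1 is known to hold back meiosis in spermatogonia, and DMRTB1 to help shut down spermatogonial genes as cells turn to meiosis.

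Kit lies on chromosome 5 at 75574916 to 75656722 on the plus strand (mm10, the build named in the submitters' processing notes; GENCODE annotation of that assembly). Sohlh1 lies on chromosome 2 at 25842995 to 25847248 on the minus strand, and Sohlh2 on chromosome 3 at 55182028 to 55209957 on the plus strand. Dmrt1 lies on chromosome 19 at 25505618 to 25604329 on the plus strand, and Dmrtb1 on chromosome 4 at 107676290 to 107684230 on the minus strand. No other gene of that annotation overlaps any of the 5 spans. The method counts 3′ ends, so UMI levels need no scaling by transcript length. They also do not tell full-length Kit RNA from the truncated Kit RNA known from later germ cells, which shares its 3′ end.

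The RefSeq promoter table (GRCm38.p6, from 250 bases before to 50 after the start site) held 4 of the 5 genes. These windows are shown because Kit and Dmrtb1 rose at the same step and because 2 of the 5 genes encode proteins of a family that binds the E-box. Capitals mark every match to CANNTG, a pattern that reads the same on both strands.
Kit, chr5:75574737-75575036, plus strand: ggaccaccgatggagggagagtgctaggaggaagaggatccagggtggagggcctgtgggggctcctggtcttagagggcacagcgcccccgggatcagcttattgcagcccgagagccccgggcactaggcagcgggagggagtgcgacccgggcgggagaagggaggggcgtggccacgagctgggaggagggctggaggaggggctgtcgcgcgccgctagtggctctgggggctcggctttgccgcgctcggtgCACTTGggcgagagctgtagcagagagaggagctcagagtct
Sohlh1, chr2:25847199-25847498, minus strand: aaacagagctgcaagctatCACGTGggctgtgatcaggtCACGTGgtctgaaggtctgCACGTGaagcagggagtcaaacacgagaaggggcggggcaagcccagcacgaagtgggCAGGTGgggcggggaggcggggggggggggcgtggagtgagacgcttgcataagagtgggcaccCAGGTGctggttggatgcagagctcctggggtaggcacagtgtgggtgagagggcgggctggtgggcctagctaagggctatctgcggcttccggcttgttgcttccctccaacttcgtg
Sohlh2, chr3:55181794-55182093, plus strand: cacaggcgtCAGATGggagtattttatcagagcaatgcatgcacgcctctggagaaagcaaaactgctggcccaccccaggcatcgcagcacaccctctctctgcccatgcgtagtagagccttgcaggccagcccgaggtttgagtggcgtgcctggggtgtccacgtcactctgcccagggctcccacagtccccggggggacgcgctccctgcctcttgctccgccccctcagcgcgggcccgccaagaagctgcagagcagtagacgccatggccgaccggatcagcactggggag
Dmrtb1, chr4:107684181-107684480, minus strand: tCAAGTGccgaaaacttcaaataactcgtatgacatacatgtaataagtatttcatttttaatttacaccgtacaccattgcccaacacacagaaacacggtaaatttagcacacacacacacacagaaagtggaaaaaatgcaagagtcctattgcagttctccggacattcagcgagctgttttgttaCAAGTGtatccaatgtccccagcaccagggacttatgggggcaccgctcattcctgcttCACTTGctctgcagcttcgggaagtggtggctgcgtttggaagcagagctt
The Sohlh1 window held 5 matches, of which 3 were the palindrome CACGTG. The Dmrtb1 window held 3 matches, and those of Kit and Sohlh2 held 1 each. Among 32851 promoter windows of this length, 72.3% held at least 1 CANNTG and 17.6% held 3 or more. CACGTG was in 7.15% of all windows, and 0.0883% held it 3 times or more. The letters ACATTGT, part of the motif bound by DM-domain proteins, were searched on both strands and were in none of the 4 windows and in 2.96% of all windows. A match is a description of the letters and was not tested for binding.

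The 5 genes followed different courses, as the plot of levels by stage shows. Kit was low at stage 1 and high from stage 2 to stage 6. Sohlh1 was highest at stage 1, and Dmrt1 was high from stage 1 to stage 5 and low from stage 7 on. Sohlh2 had a high level at stage 2 and again at stages 9 and 10, and Dmrtb1 at stages 3 and 4 and again at stage 13.

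**Figure D1:**
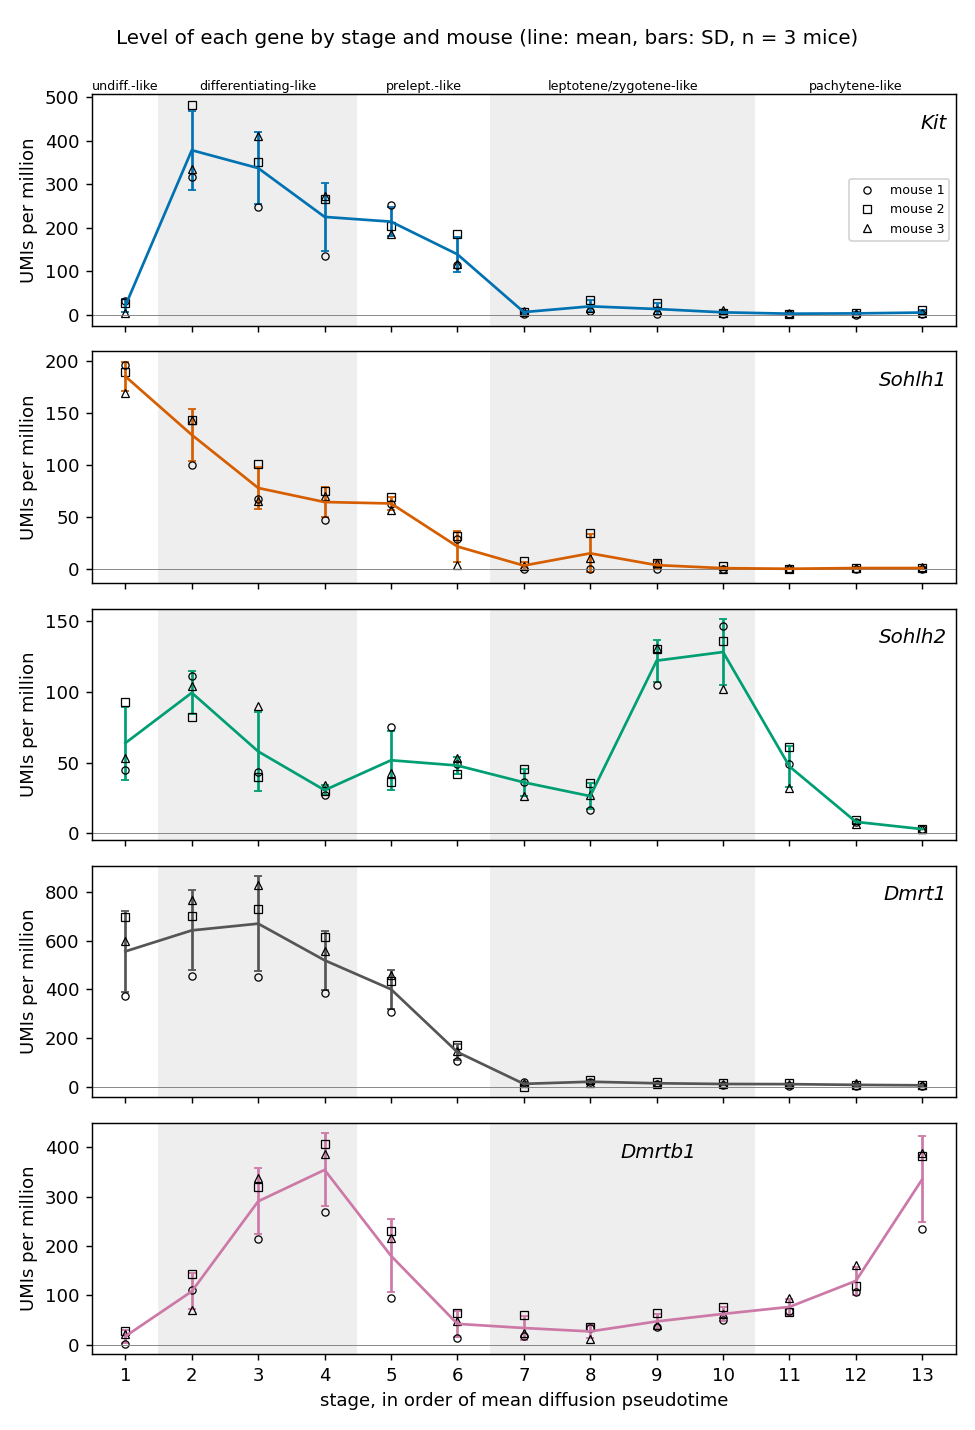
Level of each gene in CPM (vertical axes, linear) against stage (horizontal axis) for 3 mice (symbols), with the mean (line) and SD (bars); shading and labels mark the named classes. Kit steps up between stages 1 and 2 and down between stages 6 and 7, while Sohlh2 and Dmrtb1 each have high levels in 2 separate stretches.

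Classes were compared on UMIs summed per mouse and stage, with the mouse in the model (edgeR's quasi-likelihood test, Benjamini-Hochberg adjusted p under 0.05 over the 11264 genes that passed the filter on low counts, all 5 among them). Bracketed values given with an SE or an adjusted p are log2 fold changes of the later group over the earlier one. From undifferentiated-like to differentiating-like cells Kit and Dmrtb1 rose and Sohlh1 fell, where 18.5% of all tested genes were called higher and 20.3% lower. From there to preleptotene-like cells Kit, Sohlh1, Dmrt1 and Dmrtb1 fell and none of the 5 rose, where 19.8% of all genes were called higher and 25.3% lower. The same 4 genes fell again from preleptotene-like to leptotene and zygotene-like cells, where 19.7% were called higher and 25.4% lower. Of the calls over all genes in that comparison 43.7% were higher, against 32.5% with total UMIs as the library size. From there to pachytene-like cells Dmrtb1 rose and Kit, Sohlh2 and Dmrt1 fell, where 37.5% were called higher and 30.9% lower. At stage 13 against stage 1, Dmrtb1 was higher and the other 4 genes lower, where 35.7% were called higher and 39.1% lower. All 5 genes were called for a change over the stages, as were 95.6% of all genes. Between neighbouring stages 21 of the 60 tests of the 5 genes were called, 7 higher and 14 lower, where 16.3% of the 135168 tests of all genes were called. With 5 genes, these counts are a description and are not set against the background as a share.

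**Figure D2:**
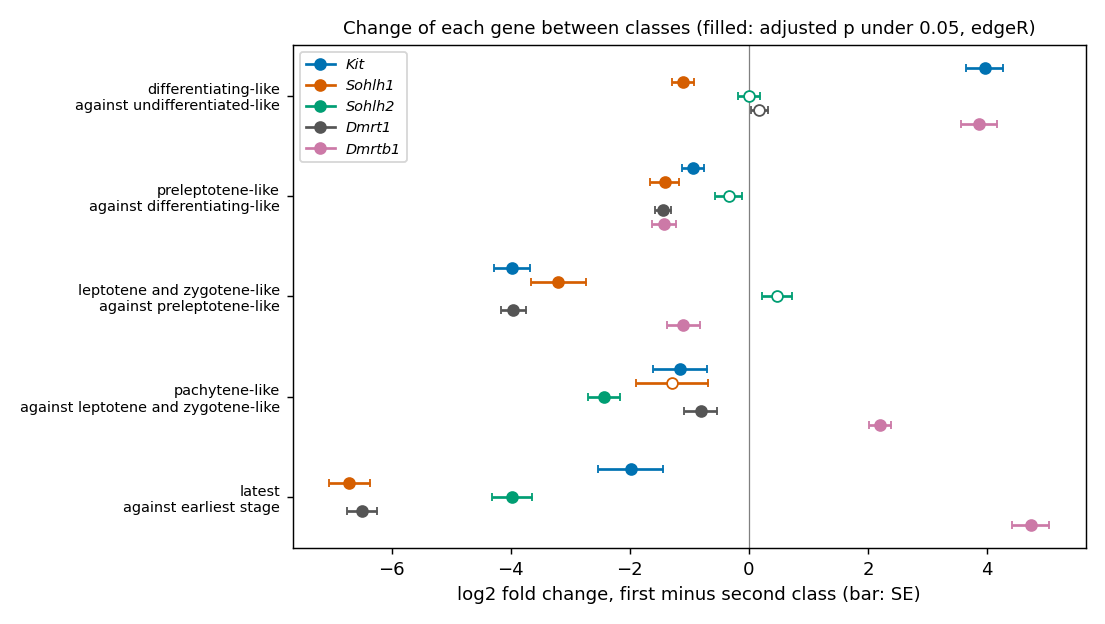
Log2 fold change (horizontal axis, bars are SE) of the 5 genes (colours) in each comparison of classes (vertical axis), with filled points for adjusted p under 0.05. Kit and Dmrtb1 stand near 4 in the first comparison, and Dmrtb1 alone is above 0 in the last.

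Kit, the receptor gene, rose between stages 1 and 2. At stage 1 it stood at 31.9, 27.1 and 4.99 CPM in mice 1, 2 and 3, and at stage 2 at 318, 482 and 334 CPM. Every mouse was higher at stage 2, and the groups did not overlap (log2 fold change 4.25, SE 0.33, edgeR adjusted p = 1.1e-12). Differentiating-like cells as a class were also above undifferentiated-like cells (3.96, SE 0.31, edgeR adjusted p = 1.4e-13). Kit then stood at 337 ± 82.5 CPM at stage 3, at 225 ± 77.8 at stage 4, at 214 ± 33.8 at stage 5 and at 139 ± 39.8 at stage 6 (SD, n = 3), and no step between neighbours in this stretch was called. As classes, preleptotene-like cells (177 ± 22.1 CPM) were below differentiating-like cells (313 ± 70.2 CPM; -0.94, SE 0.18, edgeR adjusted p = 4.4e-05). That call was lost without the mouse in the model (adjusted p = 0.062, edgeR).

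Kit fell between stages 6 and 7. It stood at 115, 185 and 118 CPM at stage 6 and at 2.80, 7.59 and 9.82 CPM at stage 7 in mice 1, 2 and 3, with no overlap (-4.29, SE 0.64, edgeR adjusted p = 2.6e-06). With stage 8 placed directly after stage 6, an order chosen after seeing the data, the step was also a fall (-2.76, SE 0.61, edgeR adjusted p = 0.0013). Stages 7 to 13 held 3.12 to 19.9 CPM on average, from 5 to 34 UMIs a stage. At stage 13 (1.75, 11.7 and 3.69 CPM) Kit overlapped stage 1. The difference was called (-1.98, SE 0.55, edgeR adjusted p = 0.0013), but not without mouse 1 (-0.65, adjusted p = 0.28) or without sums of under 20 wells (-0.34, adjusted p = 0.78). The further fall from leptotene and zygotene-like to pachytene-like cells (-1.16, SE 0.45, edgeR adjusted p = 0.022) was lost without mouse 2 or mouse 3 (adjusted p = 0.27 and 0.086). It is a fall relative to all UMIs. Per well, the Kit means were higher, at 0.0454 to 0.152 UMIs over stages 7 to 10 and 0.167 to 0.480 over stages 11 to 13. This difference between scales was not tested.

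Counted per well, Kit was found in 14 of the 58 wells of stage 1 (24.1%, exact Clopper-Pearson 95% interval 13.9 to 37.2, counting error only). Of its 33 UMIs there, 21 came from 3 wells, of which the highest held 15. With every well brought to 3000 UMIs, which left out 71 of the 1248 wells, the share of wells with a Kit UMI was 5.52 ± 3.70% (SD, n = 3) at stage 1 and 61.8 ± 4.95% at stage 2. Unthinned, the means over mice were 27.1% and 94.4%, at median depths of 25184 and 29605 UMIs a well. The thinned share at stage 1 lay within the range of stages 7 to 13, 0.963% to 6.94%, and is not read as expression across that stage.

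**Figure D3:**
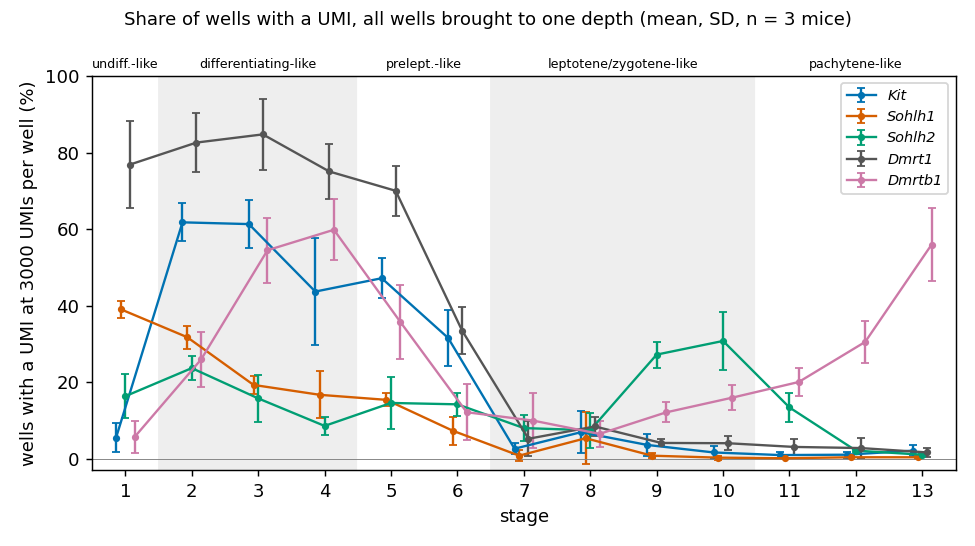
Share of wells with at least 1 UMI when every well is brought to 3000 UMIs (vertical axis, percent) against stage (horizontal axis) for the 5 genes (colours), as the mean and SD of 3 mice. Kit goes from 5.52% to 61.8% between stages 1 and 2, and Dmrt1 has the highest mean share from stage 1 to stage 6.

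Sohlh1, one of the bHLH pair, was highest in the least differentiated cells. It stood at 196, 189 and 169.5 CPM at stage 1 in mice 1, 2 and 3, at 100.2, 144 and 143 CPM at stage 2 and at 67.0, 101 and 65.7 CPM at stage 3. All 3 mice were lower at stage 2 than at stage 1 with no overlap, but this step did not pass the test (-0.53, SE 0.23, edgeR adjusted p = 0.10). As a class, differentiating-like cells (90.5 ± 17.7 CPM) were below stage 1 (-1.10, SE 0.19, edgeR adjusted p = 6.0e-06). That call was lost without the mouse in the model (adjusted p = 0.060, edgeR) and with read counts in place of UMIs (adjusted p = 0.092).

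Sohlh1 fell further by class at the entry into meiosis. Preleptotene-like cells (42.5 ± 10.3 CPM) were below differentiating-like cells (-1.42, SE 0.25, edgeR adjusted p = 1.0e-05). Leptotene and zygotene-like cells (6.03 ± 6.48 CPM) were lower again (-3.21, SE 0.46, edgeR adjusted p = 2.7e-07). The single steps to stages 3, 6 and 7 were also called (adjusted p = 0.030, 0.012 and 0.047, edgeR), but the groups overlapped at the steps to stages 3 and 7, and each call was lost when mouse 2 was left out (adjusted p = 0.13, 0.076 and 0.21). With stage 8 placed directly after stage 6 no fall was called (-0.30, SE 0.78, edgeR adjusted p = 0.87), and stages 6 and 8 stood at 21.9 ± 15.1 and 15.3 ± 18.1 CPM, so where in this stretch the level fell is not settled. Mouse 1 held no Sohlh1 UMI at stages 7, 8 and 9, and stage 13 held 12 UMIs in 99 wells. From stage 1 to stage 13 the level fell (-6.71, SE 0.35, edgeR adjusted p = 1.9e-20), and it was called under every alternative that gave a value.

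Sohlh2 had 2 separate high stretches, the first in differentiating-like cells. In mice 1, 2 and 3 it stood at 44.7, 93.2 and 53.6 CPM at stage 1, at 111, 82.4 and 104 CPM at stage 2 and at 27.0, 30.1 and 34.4 CPM at stage 4. Stages 1 and 2 overlapped, and stages 2 and 4 did not. The rise to stage 2 (0.80, SE 0.25, edgeR adjusted p = 0.020) was lost without mouse 1 or mouse 3 (adjusted p = 0.30 and 0.11). The fall to stage 3 (-0.73, SE 0.24, edgeR adjusted p = 0.030) was lost without mouse 1 or mouse 2 (adjusted p = 0.36 and 0.0995), and that to stage 4 (-0.96, SE 0.28, edgeR adjusted p = 0.012) without mouse 3 (adjusted p = 0.42). As classes, differentiating-like (62.6 ± 12.9 CPM) and undifferentiated-like cells (63.8 ± 25.8 CPM) gave no call (edgeR adjusted p = 1.0). From differentiating-like to preleptotene-like cells the log2 fold change was -0.34 (SE 0.22, edgeR adjusted p = 0.22). It was called as a fall at a minimum of 2000 UMIs per well (-0.92, adjusted p = 0.0028), without alignment across mice (-0.71, adjusted p = 0.033), at clustering resolution 0.6 (-0.85, adjusted p = 0.012) and with sums of at least 20 wells (-0.62, adjusted p = 0.025).

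Sohlh2 rose again at stage 9, where Sohlh1 was low. It stood at 16.8, 35.3 and 26.9 CPM at stage 8 and at 105, 130.3 and 131 CPM at stage 9 in mice 1, 2 and 3, with no overlap (2.27, SE 0.43, edgeR adjusted p = 0.00015). With stage 7 placed directly before stage 9 the step was also a rise (1.92, SE 0.34, edgeR adjusted p = 5.2e-05). Its highest mean was at stage 10, 128 ± 23.3 CPM, where Sohlh1 stood at 1.11 ± 1.42 CPM (SD, n = 3). The leptotene and zygotene-like class also holds the low stages 7 and 8, and it did not pass the test against preleptotene-like cells (0.47, SE 0.26, edgeR adjusted p = 0.13). This difference was called with even-numbered autosomes for staging (0.78, adjusted p = 0.013) and at clustering resolution 0.6 (0.82, adjusted p = 0.013).

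After stage 10 Sohlh2 fell at each step. It stood at 48.7, 60.9 and 32.2 CPM at stage 11, at 8.26, 9.60 and 6.47 CPM at stage 12 and at 2.83, 3.18 and 2.95 CPM at stage 13, with no overlap between neighbours. The log2 fold changes were -1.51, -2.43 and -1.30 (SE 0.21, 0.28 and 0.40), with edgeR adjusted p of 1.0e-06, 9.7e-09 and 0.018. The last was lost without mouse 1 or mouse 2 (adjusted p = 0.094 and 0.055). CPM is a share of all UMIs, and late wells held more of them, with a median of 17169.5 at stage 10, 48708.5 at stage 11 and 88181 at stage 13. Per well, Sohlh2 gave 2.78 ± 0.673 UMIs at stage 10, 2.31 ± 0.295 at stage 11 and 0.278 ± 0.0657 at stage 13. Per well, the mean of stage 11 thus lay within 1 SD of that of stage 10, which it did not in CPM, and stage 13 was low on both scales.

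Dmrt1, the DM-domain gene that holds back meiosis, had the highest mean level of the 5 genes at each of stages 1 to 6, an order that was not tested. In mice 1, 2 and 3 it stood at 372, 698 and 599.6 CPM at stage 1 and at 452, 732 and 828 CPM at stage 3, and the groups overlapped. The classes of undifferentiated-like and differentiating-like cells gave no call (0.17, SE 0.14, edgeR adjusted p = 0.37) under any alternative that gave a value. At 3000 UMIs a well, 76.9 ± 11.4% of wells held a Dmrt1 UMI at stage 1 and 84.8 ± 9.35% at stage 3 (SD, n = 3). Mouse 1 was the lowest of the 3 mice in each of stages 1 to 6.

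Dmrt1 fell at the entry into meiosis over more than 1 stage. It stood at 308, 434 and 459 CPM at stage 5, at 107, 171 and 148 CPM at stage 6 and at 16.8, 0 and 16.4 CPM at stage 7 in mice 1, 2 and 3, with no overlap between neighbours and no Dmrt1 UMI in mouse 2 at stage 7. The step to stage 6 (-1.44, SE 0.23, edgeR adjusted p = 1.2e-05) was lost without the mouse in the model (adjusted p = 0.075), and that to stage 7 was called under each alternative run on these stages (-3.24, SE 0.42, edgeR adjusted p = 1.6e-07). From stage 6 straight to stage 8 it also fell (-2.83, SE 0.47, edgeR adjusted p = 2.7e-05). The smaller step from stage 4 to stage 5 (-0.54, SE 0.19, edgeR adjusted p = 0.047) was lost when any of the 3 mice was left out (adjusted p = 0.053, 0.30 and 0.089). As classes, Dmrt1 fell to preleptotene-like cells (-1.44, SE 0.14, edgeR adjusted p = 1.7e-11) and again to leptotene and zygotene-like cells (-3.96, SE 0.21, edgeR adjusted p = 7.1e-19). By stage 13 it was at 5.07 ± 2.70 CPM (against stage 1 -6.50, SE 0.25, edgeR adjusted p = 4.4e-24). The last class step, to pachytene-like cells (-0.81, SE 0.28, edgeR adjusted p = 0.0098), was lost without mouse 1 (-0.21, adjusted p = 0.58) or mouse 2 (-0.55, adjusted p = 0.19). It too is a fall relative to all UMIs. Per well, the Dmrt1 means were higher, at 0.0799 to 0.222 UMIs over stages 7 to 10 and 0.486 to 0.584 over stages 11 to 13. This was not tested.

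Dmrtb1, the other DM-domain gene, was low at stage 1 and rose over 2 steps. It stood at 1.60, 27.1 and 21.2 CPM at stage 1, at 109.8, 144 and 70.2 CPM at stage 2 and at 214, 319.7 and 338 CPM at stage 3 in mice 1, 2 and 3, with no overlap between neighbours. Both steps were called (2.81, SE 0.36, edgeR adjusted p = 2.0e-07, and 1.43, SE 0.23, edgeR adjusted p = 1.2e-05), the latter not without the mouse in the model (adjusted p = 0.059). Differentiating-like cells as a class were above stage 1 (3.87, SE 0.31, edgeR adjusted p = 1.7e-13). The highest mean was 354 ± 74.0 CPM at stage 4 (SD, n = 3), and stages 3 and 4 overlapped.

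Dmrtb1 then fell in preleptotene-like cells. It stood at 269.5, 407 and 386 CPM at stage 4, at 94.4, 229.8 and 215 CPM at stage 5 and at 12.3, 64.8 and 48.5 CPM at stage 6, with no overlap between neighbours. Both steps were called (-1.10, SE 0.25, edgeR adjusted p = 0.0012, and -2.06, SE 0.37, edgeR adjusted p = 5.2e-05), the former not without the mouse in the model (adjusted p = 0.18). Stages 6 to 10 lay between 26.5 and 62.0 CPM on average, with no step called. The class step to leptotene and zygotene-like cells (-1.10, SE 0.28, edgeR adjusted p = 0.0012) was lost without mouse 3 (-0.77, adjusted p = 0.067) and without the gate-sorted library (-0.78, adjusted p = 0.076), and its sign turned at clustering resolution 0.6 (0.16, adjusted p = 0.74).

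In pachytene-like cells Dmrtb1 rose a second time. It stood at 67.9, 66.8 and 94.1 CPM at stage 11, at 107, 118 and 161 CPM at stage 12 and at 234, 383 and 389 CPM at stage 13 in mice 1, 2 and 3, with no overlap between neighbours. The step to stage 12 (0.78, SE 0.21, edgeR adjusted p = 0.0070) was lost without mouse 2 or mouse 3 (adjusted p = 0.096 and 0.053). That to stage 13 (1.41, SE 0.20, edgeR adjusted p = 9.2e-07) was lost without the mouse in the model (adjusted p = 0.052). Pachytene-like cells as a class (180.2 ± 39.9 CPM) were above leptotene and zygotene-like cells (42.2 ± 14.5 CPM; 2.20, SE 0.18, edgeR adjusted p = 1.7e-14) under every alternative that gave a value.

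The late level of Dmrtb1 depended on the scale. As CPM, stage 13 (335 ± 87.7) and stage 4 (354 ± 74.0) overlapped. Per well, Dmrtb1 gave 5.91 ± 1.07 UMIs at stage 4 and 31.6 ± 13.4 at stage 13, where wells held more UMIs in all (medians of 14719.5 and 88181). Against the ERCC spike-in RNA added to the wells, it gave 136 ± 68.9 and 699 ± 235 UMIs per 10000 spike-in UMIs. These differences between scales were not tested. Sohlh2 was the higher of the pair in all 3 mice at stages 9 and 10, and Dmrtb1 in all 3 at stages 11 to 13.

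**Figure D4:**
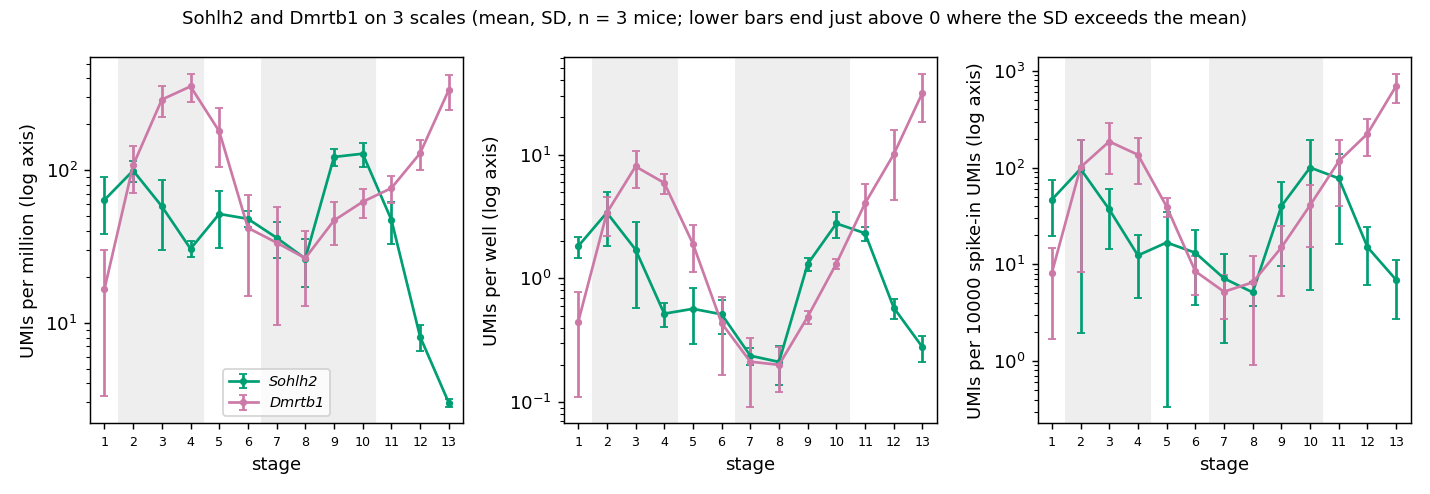
Sohlh2 and Dmrtb1 (colours) by stage (horizontal axes) on 3 scales (vertical log axes): CPM, UMIs per well and UMIs per 10000 spike-in UMIs, as the mean and SD of 3 mice. Dmrtb1 at stage 13 is level with stage 4 in CPM (335 and 354) and above it per well (31.6 and 5.91).

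Seen well by well, the 5 genes were found together at stages 2 to 5 and in few wells of any other stage. At stage 2, 43 of 73 wells held a UMI of all 5 (58.9%, exact 95% interval 46.8 to 70.3), and at stage 3, 34 of 68 did (37.6 to 62.4%). At stage 4, 37 of 156 wells did (17.3 to 31.2%), and at stage 5, 9 of 68 (6.24 to 23.6%). At stage 1, 2 of 58 wells did (0.42 to 11.9%), and at stage 6, 1 of 83. These intervals pool the wells of the 3 mice and give counting error only, and differences between stages were not tested. On average, stage 1 wells held 3.04 ± 0.391 of the 5 genes (SD, n = 3), those of stage 2 held 4.51 ± 0.0878 and those of stage 7 held 0.517 ± 0.0888. Depth moves with these numbers: the median was 25184, 29605, 14719.5, 9559 and 5364 UMIs a well at stages 1, 2, 4, 5 and 7.

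Across the 13 stages, the profile closest to Kit among the 5 genes was that of Dmrt1, with a Pearson correlation of log2(CPM + 1) of 0.86 (mean over 3 mice), and Sohlh1 and Dmrt1 gave 0.89. Sohlh2 and Dmrtb1 gave -0.37, the lowest of any pair. The stages share libraries, depth and staging, so these values only describe the profiles. Among all tested genes, the 5 most like Kit were Ppp1r1b (0.93), Gnai1, Glt25d1, Lrp8 and Klrg2 (0.91). Those most like Sohlh1 were Cd9 (0.96), Mycn, Eif4ebp1, Sox12 and Pms1, and those most like Dmrt1 were C1qbp (0.97), Mtss1, Ubtf, Ptprf and Galnt12. The nearest profiles were less close for the genes with 2 high stretches: Jak1 (0.84), Csad, Sqstm1, Prdx1 and Arf4 for Sohlh2, and Taf10 (0.86), Cdca3 (0.76), Dolpp1, Acd and Gfer for Dmrtb1.

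Other genes of KIT signalling were called in both directions at the step where Kit rose. Of 37 tested, 10 rose and 13 fell from undifferentiated-like to differentiating-like cells, with a median log2 fold change of -0.08 against 0.02 for all genes. Over all genes 18.5% were called higher and 20.3% lower. Stat3, a transcription factor downstream of cytokine receptors, fell from 175 ± 28.1 to 48.1 ± 8.40 CPM (-1.92, edgeR adjusted p = 7.0e-14). Foxo1, a transcription factor that AKT signalling keeps out of the nucleus, fell from 575 ± 79.3 to 214 ± 37.6 CPM (-1.46, adjusted p = 2.1e-12). Both are among the 13 that fell, and the 10 that rose are not reported here by name.

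In preleptotene-like against differentiating-like cells 8 of these genes rose and 12 fell (median -0.33, all genes -0.10), where 19.8% of all genes were called higher and 25.3% lower. Among the 12 that fell, the kinase gene Akt1 was at -1.75 and the signalling inhibitor gene Socs1 at -2.26 (edgeR adjusted p = 2.0e-08 and 1.6e-08). Stat3, which fell at the class step before, was among the 8 that rose, to 123 ± 9.77 CPM (1.31, edgeR adjusted p = 4.0e-09). At stage 13 against stage 1, 7 were higher and 23 lower (median -1.08, all genes -0.08). Foxo1, among those lower, was at -4.71 (edgeR adjusted p = 2.1e-23), and those higher are not reported here by name. Over all genes 35.7% were called higher there and 39.1% lower. Kitl, the ligand gene, had 11 UMIs over all stages. The related receptor genes Pdgfra, Pdgfrb and Flt3 had 122, 8 and 98 UMIs against 2570 of Kit, and did not pass the filter on low counts.

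Among bHLH partners, their inhibitors and gonadal SOHLH targets, 11 others were tested. From undifferentiated-like to differentiating-like cells 1 rose, Id2, at 1.00 ± 1.74 and 11.6 ± 2.31 CPM, and 3 fell, Id4 (-2.27), Tcf4 (-1.67) and Sox3 (-1.28, edgeR adjusted p = 4.6e-07). Over all genes 18.5% were called higher at that step and 20.3% lower. Id4, an inhibitor of bHLH dimers and a marker used to name stage 1, stood at 99.8 ± 46.3 CPM there, and it rose from 99.2 ± 20.2 CPM in leptotene and zygotene-like to 362 ± 13.7 CPM in pachytene-like cells (2.75, adjusted p = 1.6e-19). The E-protein genes Tcf3 and Tcf12, whose products pair with many bHLH factors, fell from 117 ± 22.7 and 109.7 ± 10.2 CPM at stage 1 to 2.93 ± 2.07 and 11.6 ± 3.13 CPM at stage 13 (-5.30 and -2.95, adjusted p = 3.2e-19 and 3.7e-17). In all, 3 of the 11 were higher at stage 13, Tcfl5 (1.92), Id4 (1.86) and Mesp1, and 6 were lower (median -2.95, all genes -0.08). Over all genes 35.7% were called higher at stage 13 than at stage 1 and 39.1% lower.

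In the DMRT family 5 others were tested, of which 1 was higher and 4 lower at stage 13 than at stage 1. Over all genes 35.7% were called higher in that comparison and 39.1% lower. Dmrtc2 (also called Dmrt7), known to be needed in pachytene spermatocytes, rose from 37.1 ± 13.9 to 340.0 ± 33.5 CPM (3.52, edgeR adjusted p = 1.3e-19). It rose at each class step from preleptotene-like cells on (1.46, 1.43 and 0.85), and its highest mean was 529 ± 84.0 CPM at stage 10, where Dmrt1 had 10.5 CPM on average. Dmrt3 was at 21.8 ± 3.64 CPM at stage 1 and 0.328 ± 0.568 CPM at stage 13 (called lower, adjusted p = 3.0e-08, edgeR). Dmrta2 fell from 19.4 ± 7.95 to 2.47 ± 2.46 CPM (adjusted p = 1.4e-05, edgeR). The near-identical genes Dmrtc1c1 and Dmrtc1c2 had 159 and 168 UMIs in mouse 1 and 0 in mice 2 and 3, so their calls, which are part of these counts, rest on 1 mouse and are uncertain.

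**Figure D5:**
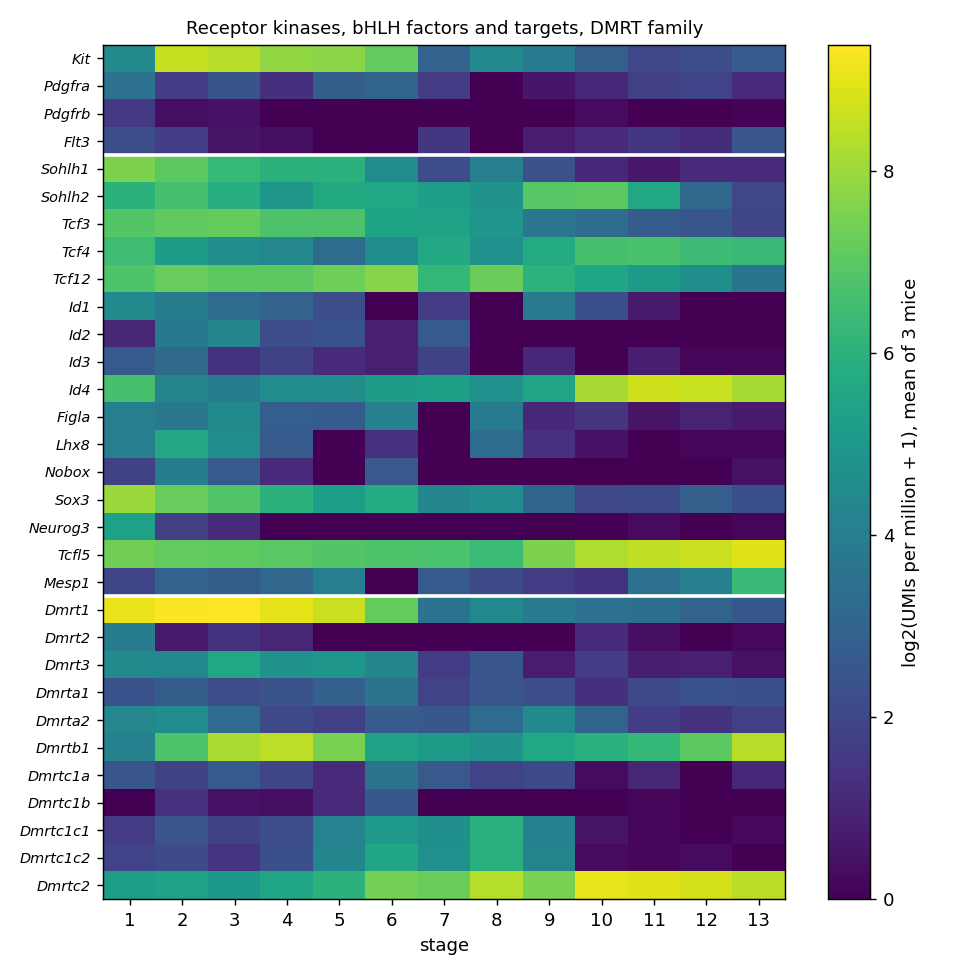
Mean level of 3 mice as log2(CPM + 1) (colour) for the receptor kinases, the bHLH factors and SOHLH targets, and the DMRT genes (rows) by stage (columns). Kit stands above the other kinases at stages 2 to 6, and Dmrtc2 is highest at stage 10 (529 ± 84.0 CPM), where Dmrt1 is low.

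Other known factors of spermatogonial differentiation also split at the step where Kit rose: of 26 tested, 9 rose and 11 fell (median -0.42, all genes 0.02). Over all genes 18.5% were called higher at this step and 20.3% lower. The cyclin gene Ccnd1 rose from 57.4 ± 44.8 to 272 ± 82.7 CPM (2.39, edgeR adjusted p = 5.4e-11). Lin28a, an RNA-binding protein gene of progenitors, fell from 261 ± 32.4 to 54.0 ± 16.5 CPM (-3.22, adjusted p = 1.8e-17). Esx1 and Crabp1 (2.81 and 1.67) and Ccnd2 and Sall4 (-4.30 and -2.03) were among the markers that named the classes, though not among the genes that formed the stages. Ccnd2 was a marker of the differentiating-like class and thus went against it, while Sall4 was a marker of the undifferentiated-like class. Among other markers of the differentiating-like class, Rarg was lower at stage 2 than at stage 1 (28.0 and 70.9 CPM). Dnmt3b, Rhox13, Dlk1 and Pou3f1 had higher means at stage 2 than at stage 1. At stage 13 against stage 1, 23 of the 26 were lower and 1 was higher, Uhrf1, a DNA methylation maintenance gene (0.79, edgeR adjusted p = 5.3e-05). Over all genes 39.1% were called lower in that comparison and 35.7% higher.

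The genes of meiotic entry rose where Kit, Sohlh1, Dmrt1 and Dmrtb1 fell. All 16 tested rose from differentiating-like to preleptotene-like cells (median 1.505, all genes -0.10). Over all genes 19.8% were called higher at this step and 25.3% lower. Stra8, the retinoic acid-induced gene of meiotic initiation and a marker that named the preleptotene-like class, rose from 287 ± 83.0 to 1391 ± 293 CPM (2.72, edgeR adjusted p = 5.0e-17). Sycp2, of the synaptonemal complex, rose from 261 ± 58.1 to 1136 ± 79.4 CPM (1.997, adjusted p = 1.9e-21). Stra8 also stood at 687 ± 209 CPM at stage 2, where Kit had its highest mean, between 128 ± 44.1 at stage 1 and 97.0 ± 16.0 at stage 3. It reached 2121 ± 457 CPM at stage 6. From leptotene and zygotene-like to pachytene-like cells 14 of these genes fell and 1 was called higher, Spo11, which encodes the enzyme that makes meiotic DNA breaks (0.33, edgeR adjusted p = 0.0021). Its class means were close (163 ± 32.7 and 166 ± 30.0 CPM), and with total UMIs as the library size no listed gene was called higher. In the main fit 37.5% of all genes were called higher at that step and 30.9% lower. Leading genes entered the naming of stages. Among them were Rec8 at stage 5, Stra8 and Mei1 at stage 6, Dmc1 at stages 7 and 8 and Prdm9 at stage 8. Stra8, Rec8 and Prdm9 of this list were also markers of the preleptotene-like class. Dmc1, Sycp1, Sycp3, Spo11, Meiob, Hormad1, Mei1 and Tex15 were markers of the leptotene and zygotene-like class. The counts of this list are thus not independent of the class names.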

How the data were processed

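Single testis cells of 3 Dazl-GFP mice were measured by SORT-Seq. For each well the authors deposited UMI counts, read counts and estimated counts (transcripts corrected for UMI collisions) by gene. BWA 0.7.10 and the build mm10 are named, without their role, in the submitters' processing notes, and the annotation is not given in the sources used here. UMI counts were used without ERCC spike-ins, eGFP, mitochondrial genes and Rn45s (1.27% of UMIs with it included). Wells with at least 1000 UMIs were kept.

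Staging used 1500 variable genes on odd-numbered autosomes, each found in 20 wells or more, without the 5 genes and all listed genes. Mice were aligned with Seurat 5.3.0 anchors, clustered with scanpy 1.11.5 (15 components, 15 neighbours, Leiden resolution 1.0) and ordered by diffusion pseudotime. A stage needed at least 10 wells in each of at least 2 mice and a median depth of at least 1/3 of that of all kept wells, and 200 wells in 4 clusters were left out. Names rest on marker lists by a rule set after the clusters were seen. A cluster took the class whose markers had the highest mean standardised difference from all other wells. That class needed at least 3 markers in 10% of wells, and no other class with more markers among the 10 leading genes. Each well received 1 sorted cell, so no doublets were removed. Column names do not separate the 8 libraries of mouse 1.

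UMIs were summed per mouse and stage (39 sums of 113360 to 4584870 UMIs) and tested with edgeR 4.0.16 (quasi-likelihood, TMM, filterByExpr, mouse and stage in the model). Benjamini-Hochberg adjustment ran over all genes, and over all genes and pairs for neighbouring stages. A class was the mean of its stage coefficients. The stages of a mouse share the animal, so the mouse was the block. Deviations from the stage means correlated within each mouse over its stages (median 0.73, 0.37 and 0.53). Intervals are Clopper-Pearson. The same fit was tested on simulated counts. Alternatives were DESeq2 1.42.0, other scalings, filters, tables, minimum depths, stagings and mice left out. The estimated counts were rounded to whole numbers first, and for mouse 1 their columns were matched by profile (lowest correlation 0.97).

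The 5 genes and all lists were chosen with earlier results of these data known. For each gene the 5 tested genes with the highest mean correlation over stages are named, and from each list up to 3 genes per direction with the smallest p. Kitl, Pdgfra, Pdgfrb and Flt3 stand outside that rule and are named for their counts alone. Some genes of the KIT signalling list are counted with it but are not reported here by name.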

Additional observations from a re-analysis of the deposited data

Results flagged for a closer look

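The 5 genes also gave UMIs in wells that no comparison used, above the 3 counts that a count of 0 allows. In the 472 wells under 1000 UMIs, Kit had 12 UMIs, Sohlh1 5, Sohlh2 7, Dmrt1 40 and Dmrtb1 30, which is 66.9, 27.9, 39.0, 222.9 and 167.1 CPM. These wells hold 179485 UMIs in all, and which cells or RNA they come from was not tested.

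A cluster of 36 wells led by Gm16157, with a median of 2341 UMIs, held 25 UMIs of Kit (226.4 CPM), 9 of Sohlh1, 8 of Sohlh2, 41 of Dmrt1 (371.3 CPM) and 23 of Dmrtb1 (208.3 CPM), levels that fall within those of stages 3 to 6 for Kit, Dmrt1 and Dmrtb1. A cluster of 115 wells led by Spry2 held 19 UMIs of Kit, 7 of Sohlh1, 8 of Sohlh2, 23 of Dmrt1 and 41 of Dmrtb1. A cluster of 38 wells led by Vmn2r55 held 8 of Dmrt1 and at most 2 of any other of the 5 genes. In the 11 spermatid-like wells, Sohlh2 had 15 UMIs, Dmrt1 38, Dmrtb1 14 and Kit 5. The Dmrt1 UMIs came from 4 wells, and 35 of them from 2 wells of mouse 3. Of the Dmrtb1 UMIs, 11 came from 2 wells of mouse 3. Groups of 3 mice are too small for the test for outlying samples.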

How the results depend on the processing

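Of 46 tested differences of the 5 genes, 23 kept their direction and call under each alternative that gave them a value, among them the rises of Kit and Dmrtb1 from undifferentiated-like to differentiating-like cells, the falls of Kit, Sohlh1 and Dmrt1 to leptotene and zygotene-like cells, the steps of Sohlh2 from stage 8 to 12 that were called, and the rise of Dmrtb1 in pachytene-like cells. Single stage steps were not run under the other stagings, the other clustering resolutions or the 2000 UMI minimum, whose stages differ. Of 683 values under alternatives, 74 lost a call, 15 gained one and 8 changed sign. Steps between neighbouring stages entered these counts only if called in the main fit, 21 of 60. A step not called there could not count as gained. Sohlh2, at -0.0014 in differentiating-like against undifferentiated-like cells, was between -0.26 and 0.37 with 1 mouse left out (without replicate 2 the highest), 0.059 with reads, 0.021 with the estimated counts, 0.56 at 2000 UMIs per well, 0.014 without alignment, 0.41 at resolution 0.6 and 0.20 with sums of at least 20 wells, and was never called. Dmrtb1 in leptotene and zygotene-like against preleptotene-like cells changed sign at resolution 0.6 (0.16). The number of genes called from leptotene and zygotene-like to pachytene-like cells, 4, was 2 at 2000 UMIs per well and with sums of at least 20 wells, and between 2 and 4 when 1 mouse was left out. Calls between neighbouring stages, 21, were 13 with reads and 9 with no replicate block, that is without pairing the stages of a mouse. The cause was not tested.

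Over all genes, calls from undifferentiated-like to differentiating-like cells were 2290 without the block, 2895 with reads and 2549 with sums of at least 20 wells, against 4366. Between neighbouring stages they were 9829 without the block, 12540 with reads, and 13829 and 12531 without mouse 2 and mouse 3, against 22080. Without alignment no cluster was leptotene and zygotene-like, and with sums of at least 20 wells stage 1 held mouse 3 alone. Scaling moved the median of all genes at stage 13 against stage 1 from -0.08 to -0.25 (median-ratio factors) and -0.40 (total UMIs), and with total UMIs 32.5% rather than 43.7% of calls from preleptotene-like to leptotene and zygotene-like cells were higher. Low counts limit the values of Kit after stage 6, which rest on 5 to 34 UMIs a stage.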
